A study of Mus musculus with 60 samples.

Results

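Repsox and Vactosertib are small-molecule inhibitors of ALK5, the kinase encoded by Tgfbr1, and the 6 libraries described here set them against each other at the same dose of 0.1 µM in the same cells. The 3 Repsox and 3 Vactosertib libraries were taken by their treatment labels from the 60 samples of the study. All 6 came from tail tip fibroblasts of a female Ercc1 D/KO mouse, 4 weeks of age, whose genotype label is Ercc1 d/-: per the study, a single shortened copy of Ercc1 remained. Ercc1 is a subunit of the nuclease that cuts damaged strands in nucleotide excision repair, and its loss gives a mouse model of accelerated ageing. Polyadenylated RNA was sequenced after 3 days with the compound, the dose and the time being taken from the study's description. For reference the same fit held 3 libraries each of untreated D/KO control cells, of D/KO cells with A83-01 at 1 µM (an ALK5 inhibitor), of D/KO cells with DMH-1 at 1 µM (an ALK2 inhibitor) and of untreated WT (Ercc1 +/+) fibroblasts from a 14-week-old female. The labels name no separate animals or cultures behind the triplicates, so that p-values measure only the spread between these libraries, which may be technical.

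TGFb ligands bind a type II receptor that activates ALK5, which phosphorylates Smad2 and Smad3, and in fibroblasts the pathway is known for driving collagen, matrix and contractile genes. BMP ligands act through other type I receptors, ALK2 (Acvr1) among them, on Smad1 and Smad5 and induce the Id genes. Both compounds occupy the ATP site of the kinase and share a methylpyridine ring. Repsox joins that ring to a naphthyridine through a pyrazole, whereas Vactosertib joins it to a triazolopyridine through an imidazole that also carries a fluoroaniline arm. The study lists Vactosertib as acting on ALK2 as well as ALK5.

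Total counts were 24133891, 22893939 and 26706181 in Repsox replicates 1 to 3 and 19155651, 24531041 and 17469165 in Vactosertib replicates 1 to 3. Repsox replicate 2 stood apart from the other Repsox libraries. Its log2 CPM (counts scaled to a common library size) correlated with them at no more than 0.969 over 15164 genes, whereas the other Repsox libraries correlated at 0.991 with each other and the Vactosertib libraries at 0.986 to 0.989. Ribosomal protein genes took 6.66% of its counts, against 3.39% and 3.22% in Repsox replicates 1 and 3 and 3.75% to 4.95% with Vactosertib. In Repsox replicate 2, 759 genes lay over 1 log2 unit above the mean of the other Repsox libraries and 1385 lay as far below it. The library nearest to Repsox replicate 2 was Vactosertib replicate 3, at 0.983, and Repsox replicates 1 and 3 correlated with Vactosertib replicate 2 at 0.990, so the 6 libraries did not fall apart by compound on this measure. Why Repsox replicate 2 stood apart was not tested, and its group is that of its label. No pair of libraries agreed within sampling noise. Fibroblast markers were abundant, with summed levels of 44950.2 to 53084 CPM with Repsox and 54852 to 58151 CPM with Vactosertib, ranges that did not overlap, led by the collagen genes Col1a1, Col1a2 and Col3a1, while of the 17 markers 8 had a higher and 9 a lower value with Repsox. Of 13 keratinocyte markers 10 averaged under 1 CPM, as did 7 of 12 immune cell markers, and Krt14, Cdh1 and Cd3e were at 0 in all 6 libraries. Schwann cell and melanocyte markers summed to 45.7 to 49.9 CPM with Repsox and 39.2 to 43.5 CPM with Vactosertib, also without overlap but higher with Repsox. Endothelial markers were present, at 373 to 516 CPM with Repsox and 411 to 514 CPM with Vactosertib, with Pecam1, Cdh5 and Emcn leading, and fewer cells of a type cannot be told apart from less RNA per cell in such bulk samples.

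The question of the comparison was whether 2 inhibitors of different scaffold left the D/KO transcriptome in different states. At an adjusted p under 0.05 in edgeR (quasi-likelihood model, Benjamini-Hochberg correction over all genes tested), 0 of 15164 genes (0%) were higher and 0 were lower with Repsox than with Vactosertib. The smallest adjusted p was 0.0913, for Cd24a. At an unadjusted p under 0.05 there were 452 genes, of which 215 (1.42% of those tested) were higher with Repsox and 237 (1.56%) were lower. DESeq2 called 5 genes higher (0.033%) and 3 lower (0.0198%). Both inhibitors had changed many genes against control by edgeR: 2025 genes rose (13.4%) and 1795 fell (11.8%) with Repsox, and 1795 rose (11.8%) and 1559 fell (10.3%) with Vactosertib. These 2 contrasts share the control libraries, and the difference between them was tested only by the direct comparison.

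The absence of calls did not show that the compounds acted alike, and the interval of each difference gave the bound. The 95% interval of the log2 difference lay within 1 unit of no difference for 11942 genes (78.8%), and within 0.5 units for 7261 genes (47.9%). Its median width was 0.41 log2 units to either side. The median difference over all genes was 0.0089 log2 units, the median absolute difference was 0.099, and 52.8% of genes had a value above 0. Without Repsox replicate 2 the median was 0.0022 and 50.3% of genes lay above 0. In 464 genes (3.06%) all 3 Repsox libraries lay above all 3 Vactosertib libraries, and in 520 genes (3.43%) all 3 lay below.

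**Figure D1:**
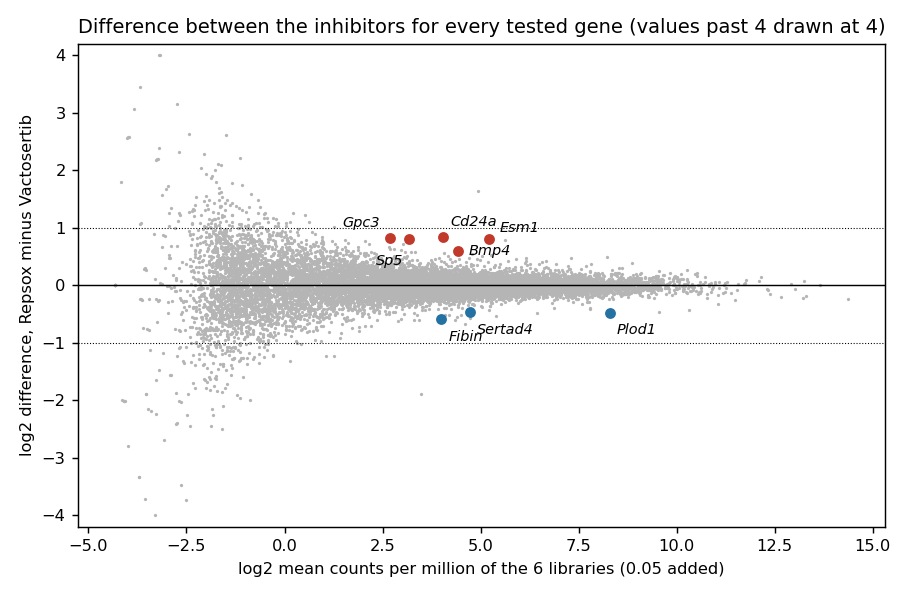
Each grey point is 1 of 15164 tested genes, with its log2 mean CPM over the 6 libraries on the x axis and its log2 difference, Repsox minus Vactosertib, on the y axis, dotted lines marking 1 log2 unit in either direction. The 5 genes that DESeq2 called higher with Repsox (red) and the 3 it called lower (blue) stand outside the narrow band of genes at similar levels, and none of the 8 differences reaches 1 log2 unit.

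Because edgeR called no gene, the genes below were chosen after their values were seen, as those that DESeq2 called. Their differences kept one direction in 16 refits with other settings or fewer libraries, or in 15 for Gpc3, which a filter on counts in every library removed. The refits reuse the libraries on which the genes were chosen. A kept direction, or groups without overlap, is therefore no separate support for these genes. The 5 genes that DESeq2 placed higher with Repsox had all been raised by both inhibitors above control, and the groups did not overlap in any of them.

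Cd24a (chr10:43454280-43460261, plus strand, coordinates here and below on GRCm39) encodes a small glycosylated surface protein anchored by a lipid. It stood at 21.2, 22.9 and 19.3 CPM with Repsox, 12.1, 11.5 and 11.5 CPM with Vactosertib and 6.08, 4.92 and 6.18 CPM in control. Every Repsox library lay above every Vactosertib library, and all 6 lay above the controls. The log2 difference was 0.85 ± 0.13 (SE, n = 3 and 3, 95% interval 0.58 to 1.12), with an edgeR adjusted p of 0.0913 and a DESeq2 adjusted p of 6.38e-08. Gpc3 (chrX:51361303-51702827, minus strand), a cell-surface heparan sulfate proteoglycan, reached 9.04, 7.02 and 8.38 CPM with Repsox and 3.89, 5.85 and 3.99 CPM with Vactosertib from 0.402, 0.256 and 0.499 CPM in control. The Vactosertib libraries were the more spread, replicate 2 lying nearest to the Repsox libraries. Its difference was 0.82 ± 0.16 log2 units, with an edgeR adjusted p of 0.57 and a DESeq2 adjusted p of 0.014.

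Sp5 (chr2:70305267-70308073, plus strand), a transcription factor and direct target of Wnt signalling, stood at 11.2, 12.2 and 10.6 CPM with Repsox and 6.67, 5.93 and 6.93 CPM with Vactosertib, and at 1.47, 1.08 and 2.06 CPM in control. The difference was 0.80 ± 0.19 log2 units and the DESeq2 adjusted p was 0.0274. Bmp4 (chr14:46620977-46628126, minus strand), a BMP ligand, stood at 27.7, 24.3 and 25.5 CPM with Repsox, 19.7, 16.9 and 14.98 CPM with Vactosertib and 6.03, 7.54 and 6.99 CPM in control. The Repsox libraries lay close together and the Vactosertib libraries between them and control. Bmp4 differed by 0.59 ± 0.13 log2 units, with a DESeq2 adjusted p of 0.029. Esm1 (chr13:113346193-113354632, plus strand), a secreted proteoglycan best known from endothelium, stood at 43.9, 58.9 and 38.4 CPM with Repsox, 28.6, 27.6 and 24.96 CPM with Vactosertib and 9.74, 5.69 and 5.99 CPM in control. Repsox replicate 2 was the highest library, and the difference of 0.80 ± 0.18 log2 units was 0.60 without it. Emcn, a defining endothelial marker, had a difference of 0.48 log2 units and Cldn5, another, of -0.52, while of the 10 endothelial markers 4 had a higher and 6 a lower value with Repsox. Their part in the Esm1 value was not tested.

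The 3 genes that DESeq2 placed lower with Repsox had been lowered by both inhibitors. Plod1 (chr4:147994210-148021224, minus strand), a lysyl hydroxylase that prepares collagen for crosslinking, fell from 994, 1081 and 1151 CPM in control to 283, 219 and 283 CPM with Repsox and 363, 376 and 351 CPM with Vactosertib. All Repsox libraries lay below all Vactosertib libraries, replicate 2 being the lowest. The log2 difference was -0.47 ± 0.099 (95% interval -0.68 to -0.26, DESeq2 adjusted p = 0.0274) and it was -0.36 without Repsox replicate 2. Sertad4 (chr1:192526796-192538064, minus strand), a SERTA domain protein, stood at 23.4, 21.6 and 21.2 CPM with Repsox, 29.7, 32.2 and 29.8 CPM with Vactosertib and 124, 141 and 128 CPM in control. Both groups were tight and did not overlap, and the difference was -0.47 ± 0.093 log2 units (DESeq2 adjusted p = 0.0274). An antisense gene overlaps Sertad4, and no strand setting is given for the counting, so reads of the pair cannot be told apart. Fibin (chr2:110191262-110193528, minus strand), a secreted protein linked to fin and limb development, stood at 13.4, 13.3 and 11.6 CPM with Repsox, 21.6, 18.5 and 17.5 CPM with Vactosertib and 66.4, 65.6 and 60.5 CPM in control, a difference of -0.59 ± 0.12 log2 units (DESeq2 adjusted p = 0.0274).

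**Figure D2:**
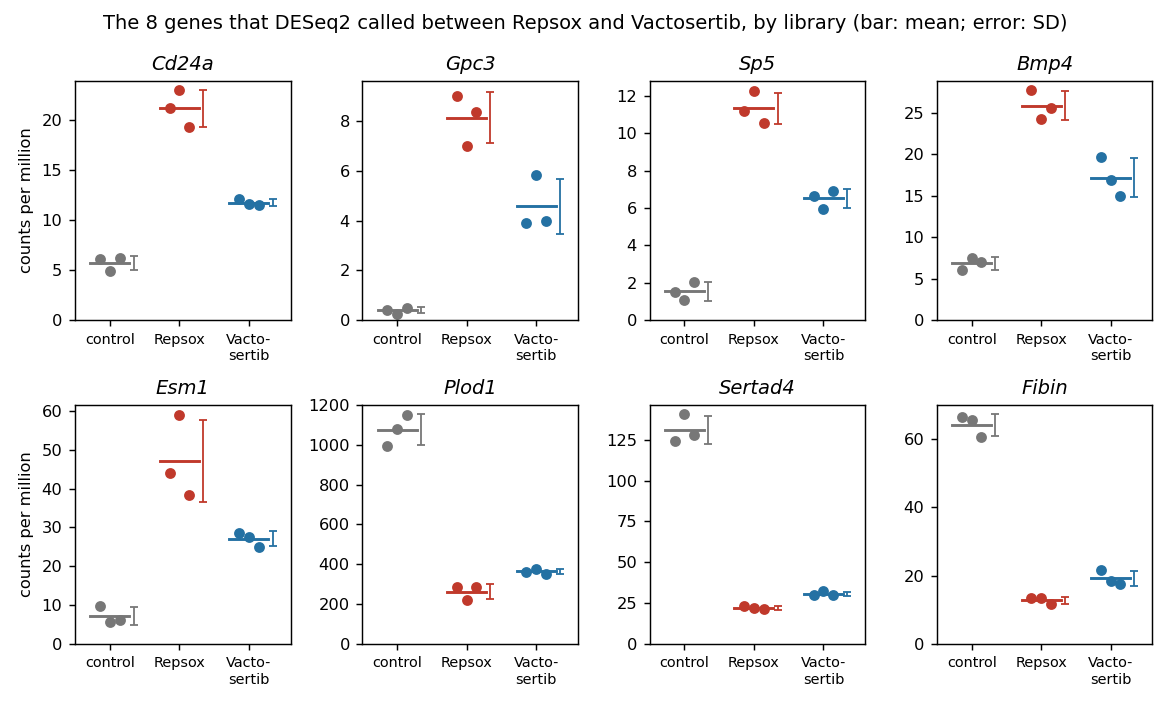
CPM of the 8 genes in each of the 3 control, 3 Repsox and 3 Vactosertib D/KO libraries, with each group's mean (bar) and SD (error bar), every y axis starting at 0. Vactosertib lies between control and Repsox in all 8 panels, and the Repsox and Vactosertib points do not overlap in any of them. The genes were chosen on these same libraries.

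In each of the 8 genes the log2 change against control was the larger with Repsox. Cd24a changed by 1.88 with Repsox and 1.03 with Vactosertib, Sp5 by 2.89 and 2.09, and Gpc3 by 4.40 and 3.58. For the genes that fell, Plod1 changed by -2.04 with Repsox and -1.57 with Vactosertib, Sertad4 by -2.57 and -2.10, and Fibin by -2.33 and -1.74. A83-01, whose libraries were in neither arm of the comparison, had moved all 8 in the same direction against control, from -3.47 for Sertad4 to 5.56 for Gpc3. At its dose of 1 µM the changes with A83-01 were 1.502 for Cd24a, 1.94 for Sp5, 1.30 for Bmp4, 2.35 for Esm1, -2.42 for Plod1 and -2.49 for Fibin. Those of Bmp4 and Esm1 with Repsox at 0.1 µM were 1.92 and 2.71, and the doses differ.

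A weighted limma fit (voom with sample quality weights), chosen after the data were seen, gave Repsox replicate 2 a weight of 0.114 and called 16 genes higher and 7 lower with Repsox, the 8 genes above among them. The rest included Edn1 (endothelin, a vasoconstrictor peptide), at 34.8, 24.5 and 32.1 CPM with Repsox, 23.2, 21.8 and 21.1 CPM with Vactosertib and 10.3, 9.28 and 9.48 CPM in control. Its groups did not overlap, and its difference by edgeR was 0.47 ± 0.11 log2 units. Stc1 (stanniocalcin), Tgfa (an EGF receptor ligand), Fgfr2 (a fibroblast growth factor receptor) and Mylk were also higher in that fit, by 0.65, 0.75, 0.40 and 0.49. Trib3 and Crabp2, a carrier of retinoic acid, were lower, at -0.62 and -0.82. The groups did not overlap in Tgfa and Trib3. They overlapped in Stc1, Fgfr2, Mylk and Crabp2, where Repsox replicate 2, given little weight in that fit, lay within the range of Vactosertib. The fit thus gave 23 calls where edgeR gave 0, and edgeR without Repsox replicate 2 also gave 0, with 1366 genes at an unadjusted p under 0.05.

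Promoter sequence could be read for 7 of these 8 genes and for Id4, in RefSeq windows of 300 bases on GRCm38.p6. They were searched on both strands for the SMAD box (CAGAC or GTCTG, present in 49.6% of 32851 such windows), the GC box bound by BMP-activated Smads (GGCGCC, 11.9%), the AP-1 site (TGANTCA, 7.81%) and the TCF/LEF site through which Wnt signalling acts (CTTTGAT or ATCAAAG, 3.73%). The windows of Gpc3, Bmp4, Esm1 and Fibin held none of the 4, that of Plod1 held a SMAD box, and Sertad4 had a pair of windows with SMAD boxes, 1 of them with a GC box as well. Those of Sp5 and Id4 are shown because each held a rarer site that matches its known upstream pathway, with the letters found in capitals, a match being a description and not a shown site. Sp5 lay at chr2:70474673-70474972 and Id4 at chr13:48260866-48261165, both on the plus strand, the TCF/LEF and SMAD boxes being in the first and the GC box in the second.
Sp5: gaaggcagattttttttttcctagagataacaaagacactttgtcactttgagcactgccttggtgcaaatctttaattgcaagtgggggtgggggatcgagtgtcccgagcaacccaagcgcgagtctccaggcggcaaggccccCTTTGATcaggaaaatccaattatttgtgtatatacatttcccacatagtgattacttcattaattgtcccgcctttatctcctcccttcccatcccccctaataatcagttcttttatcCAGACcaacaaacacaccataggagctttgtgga
Id4: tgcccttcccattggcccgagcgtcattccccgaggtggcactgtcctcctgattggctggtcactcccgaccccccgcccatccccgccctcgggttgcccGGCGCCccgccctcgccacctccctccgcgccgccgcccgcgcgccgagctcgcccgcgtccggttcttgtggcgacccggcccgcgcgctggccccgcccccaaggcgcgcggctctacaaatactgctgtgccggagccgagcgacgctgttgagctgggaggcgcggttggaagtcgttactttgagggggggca

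Among the receptor genes, Tgfbr1, Acvr1 and Acvr1b showed small differences. Tgfbr1, which encodes ALK5, stood at 56.4, 36.1 and 51.5 CPM with Repsox, 51.9, 51.6 and 44.8 CPM with Vactosertib and 68.5, 75.8 and 70.8 CPM in control. The groups overlapped, and the difference was -0.043 ± 0.15 log2 units (95% interval -0.37 to 0.28), with its sign reversed, at 0.12, without Repsox replicate 2. Acvr1, which encodes ALK2, stood at 65.3, 59.8 and 70.2 CPM with Repsox and 69.8, 71.3 and 69.5 CPM with Vactosertib, with a 95% interval of -0.27 to 0.049. Acvr1b, which encodes ALK4, had an interval of -0.55 to 0.29, and Acvr1c, which encodes ALK7, had 4 counts over the Repsox libraries and 1 over the Vactosertib libraries and was not tested. Of 12 TGFb and BMP receptor genes tested, 6 had a higher value with Repsox and 6 a lower one, with differences from -0.53 to 0.15 log2 units. None was called by edgeR, and the intervals of 11 lay within 1 log2 unit. With Repsox replicate 2 left out, 9 had a higher and 3 a lower value, and the median moved from -0.019 to 0.15 log2 units, with Acvr1b at 0.047 and Acvr1 at -0.053. Ercc1 stood at 18.03, 20.8 and 18.1 CPM with Repsox and 18.1, 19.6 and 17.9 CPM with Vactosertib, a difference of 0.034 ± 0.16 log2 units. It averaged 21.7 CPM in D/KO control and 18.8 CPM in WT control cells, so that the count of the whole gene, part of which overlaps Polr1g on the other strand, was no lower in D/KO than in WT cells and does not check the labels.

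Genes that TGFb signalling induces pointed both ways. List members named here and below for an unadjusted p under 0.05 were chosen after their values were seen. Over all genes 1.42% reached it with higher and 1.56% with lower values with Repsox. At any p, 52.8% of all genes had a higher value with Repsox (50.3% without Repsox replicate 2). Of 20 TGFb target genes tested, 10 had a higher and 10 a lower value with Repsox. Their median difference was 0.00035 log2 units, close to that of all genes, and none was called by edgeR. The split was 12 to 8 and the median 0.064 without Repsox replicate 2. Against control, Repsox raised 5 and lowered 7 of them and Vactosertib raised 3 and lowered 7, where Repsox raised 13.4% and lowered 11.8% of all genes and Vactosertib 11.8% and 10.3%. Ccn2 (connective tissue growth factor) stood at 227, 267 and 198 CPM with Repsox and 188, 175 and 185 CPM with Vactosertib, from 735, 702 and 633 CPM in control. The Repsox libraries lay above the Vactosertib libraries, nearer to control, with a difference of 0.34 ± 0.10 log2 units (unadjusted p = 0.00468, edgeR adjusted p = 1). Repsox replicate 2 was the highest, and the difference was 0.22 without it. Bhlhe40, a transcriptional repressor, went the other way, at 26.1, 22.6 and 27.03 CPM with Repsox and 32.7, 29.7 and 33.8 CPM with Vactosertib, from 93.6, 94.6 and 90.9 CPM in control. Its groups did not overlap either, with Repsox farther from control and a difference of -0.34 ± 0.086 log2 units. Skil, a feedback repressor of Smads, differed by -0.42 (-0.27 without Repsox replicate 2) and Tgfbi, a matrix protein named for its induction by TGFb, by -0.32 (-0.18 without Vactosertib replicate 3). Smad7 (the inhibitory Smad) and Pmepa1 (another feedback inhibitor) had differences of 0.067 and -0.11.

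All 12 BMP target genes tested had a higher value with Repsox, with a median difference of 0.15 log2 units, none being called by edgeR. Both inhibitors had raised 10 of the 12 against control (13.4% and 11.8% of all genes) and lowered none, by a median of 1.68 log2 units with Repsox and 1.52 with Vactosertib. Id4, an inhibitor of bHLH factors, stood at 142, 149 and 118 CPM with Repsox and 107, 107 and 99.6 CPM with Vactosertib, from 18.8, 17.2 and 18.8 CPM in control. The groups did not overlap, and the difference was 0.38 ± 0.10 log2 units (unadjusted p = 0.00202, edgeR adjusted p = 1). Id1, Id2 and Id3 had differences of 0.31, 0.25 and 0.21 log2 units with overlapping groups. Smad6, an inhibitory Smad, and Atoh8, a bHLH factor, were raised by both compounds and differed by 0.024 and 0.13. Without Repsox replicate 2, 8 of the 12 had a higher value and the median was 0.085. Of 25 TGFb family ligands and antagonists tested, Bmp4 and Fst (follistatin, an activin antagonist) had an unadjusted p under 0.05 above Vactosertib and Fstl3 had one below, at -0.42 log2 units and -0.20 without Repsox replicate 2. The list's median moved from 0.035 with 14 members higher to 0.20 with 19 higher without that library. Fst stood at 34.3, 39.8 and 34.3 CPM with Repsox and 28.9, 24.5 and 26.4 CPM with Vactosertib.

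Contractile genes had higher values with Repsox in 18 of 20 tested members, with a median difference of 0.19 log2 units (0.17 and 15 of 20 without Repsox replicate 2). None was called by edgeR, Mylk was called in the weighted limma fit, and 5 had an unadjusted p under 0.05, all with higher values with Repsox. Over all genes 52.8% had a higher value with Repsox, and 1.42% had one at an unadjusted p under 0.05. Cnn1 (calponin) stood at 99.3, 144 and 84.4 CPM with Repsox, 79.4, 79.0 and 87.4 CPM with Vactosertib and 142, 117 and 121 CPM in control. Repsox replicate 2 was the highest library and the groups overlapped, with a difference of 0.41 ± 0.18 log2 units, which was 0.16 without that library. Mylk, the kinase of myosin light chain, stood at 102, 65.9 and 93.2 CPM with Repsox and 70.1, 74.0 and 58.4 CPM with Vactosertib, and there Repsox replicate 2 was the lowest of its group. Actg2 (smooth muscle actin), Lmod1 (leiomodin) and Ldb3, a protein of the Z disc, differed by 0.29, 0.25 and 0.35. Actg2 stood at 0.17 and Lmod1 at 0.38 without Repsox replicate 2, and Lmod1 at 0.12 and Mylk at 0.24 without Repsox replicate 1. Cnn2, another calponin, differed by 0.055, and by -0.079 without Repsox replicate 2. Acta2, the actin by which myofibroblasts are known, had a difference of 0.27 with a 95% interval of -0.029 to 0.58. Against control, the list held 4 genes raised and 1 lowered by Repsox and 2 raised and 3 lowered by Vactosertib, numbers near the shares over all genes (13.4% and 11.8% with Repsox, 11.8% and 10.3% with Vactosertib), from which nothing is read about the list.

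Collagen processing enzymes had lower values with Repsox in 21 of 23 tested members, with a median difference of -0.14 log2 units. Both inhibitors had lowered most of the list, 17 members with Repsox and 16 with Vactosertib (11.8% and 10.3% of all genes), and had raised none. Beside Plod1, 4 members had an unadjusted p under 0.05, all lower with Repsox, against 1.56% of all genes. P4ha1, a prolyl hydroxylase, stood at 510.1, 551 and 493 CPM with Repsox and 584, 591 and 599.5 CPM with Vactosertib, without overlap and with a difference of -0.19 ± 0.07 log2 units. P4ha2, P3h1 and Serpinh1, a collagen chaperone, differed by -0.24, -0.18 and -0.17. Without Repsox replicate 2, 15 of 23 members had a lower value and the median was -0.084.

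The collagens themselves depended on that library. Of 32 collagen chains tested, 25 had a lower value with Repsox, with a median of -0.15 log2 units, but without Repsox replicate 2 the count was 15 of 32 and the median 0.0044. Col5a1 showed the pattern, at 2310.0, 1307 and 2092 CPM with Repsox and 2117, 2726 and 2286 CPM with Vactosertib. Repsox replicate 1 lay within the range of Vactosertib, replicate 3 just below it and replicate 2 far below it. Its difference was -0.32 log2 units, and -0.11 without replicate 2. Col5a2 and Col7a1 differed by -0.26 and -0.14 log2 units, and by -0.12 and 0.0043 without that library, a change of sign for Col7a1. Matrix glycoproteins behaved likewise, with 32 of 42 lower, a median of -0.098 and a median of 0.041 without Repsox replicate 2. Mmp13, a collagenase, was among the genes lowered most by both compounds, at 2.56, 2.23 and 2.57 CPM with Repsox and 3.33, 4.34 and 4.604 CPM with Vactosertib, from 158, 158 and 167 CPM in control. Its groups did not overlap, and it differed by -0.74 ± 0.23 log2 units (unadjusted p = 0.00492).

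The amino acid response driven by ATF4, which induces transporters and synthetic enzymes when amino acids run short, had lower values with Repsox in 22 of 24 tested members. The median difference was -0.098 log2 units, and -0.25 with 21 of 24 lower without Repsox replicate 2. Trib3, a pseudokinase induced by ATF4, stood at 66.7, 87.3 and 61.9 CPM with Repsox, 100.3, 93.9 and 107 CPM with Vactosertib and 149, 127 and 144 CPM in control. The groups did not overlap and Repsox replicate 2 lay nearest to Vactosertib. The difference was -0.48 ± 0.13 log2 units (unadjusted p = 0.00211, edgeR adjusted p = 1). Chac1, which degrades glutathione, stood at 30.0, 27.4 and 26.3 CPM with Repsox and 36.2, 37.2 and 34.4 CPM with Vactosertib against 37.9, 36.01 and 36.1 CPM in control, so that the Vactosertib libraries lay at the level of control. Slc7a11 and Slc7a5, both amino acid transporters, and Pycr1, an enzyme of proline synthesis, differed by -0.37, -0.32 and -0.19, Slc7a5 by -0.20 without Repsox replicate 2. Of the list, Repsox lowered 13 against control and Vactosertib 8, each raising 1, where Repsox lowered 11.8% and Vactosertib 10.3% of all genes, and the difference between the counts was not tested.

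Glycolysis and hypoxia genes had lower values with Repsox in 29 of 36 tested members, also without Repsox replicate 2, where the median was -0.18 log2 units against -0.12 with all libraries. Both compounds had lowered most of them against control, 28 with Repsox and 27 with Vactosertib, where the shares over all genes were 11.8% and 10.3%. Vegfa, the angiogenic growth factor, stood at 85.2, 81.4 and 78.0 CPM with Repsox and 94.3, 90.7 and 98.9 CPM with Vactosertib, from 152, 166 and 158 CPM in control. Gpi1, the isomerase of glucose phosphate, stood at 574, 587 and 584 CPM with Repsox and 683, 642 and 687 CPM with Vactosertib, and Pdk1, which holds pyruvate back from the mitochondria, at 82.7, 73.1 and 82.0 CPM with Repsox and 102, 90.3 and 87.0 CPM with Vactosertib. In all 3 genes the groups did not overlap, with differences of -0.22, -0.20 and -0.23 log2 units and edgeR adjusted p-values that missed the threshold.

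Mitosis and spindle checkpoint genes had higher values with Repsox in 34 of 40 tested members, against 52.8% of all genes, with a median of 0.18 log2 units. Without Repsox replicate 2, 30 of 40 were higher and the median was 0.25. Against control, Repsox lowered 21 and Vactosertib 28 of its members, against 11.8% and 10.3% of all genes. Ccna2 (cyclin A2) stood at 9.84, 5.93 and 8.42 CPM with Repsox, 6.46, 4.42 and 6.21 CPM with Vactosertib and 11.4, 12.004 and 12.04 CPM in control. Cdc20, an activator of the anaphase-promoting complex, stood at 8.92, 9.34 and 8.96 CPM with Repsox, 7.73, 5.09 and 7.93 CPM with Vactosertib and 12.4, 10.7 and 14.7 CPM in control. Cdc20 differed by 0.40 log2 units, and by 0.21 without Vactosertib replicate 2. Of control, Repsox and Vactosertib, both genes lay lowest with Vactosertib, the Ccna2 groups overlapping and the Cdc20 groups not. Against control Ccna2 and Cdc20 changed by -1.06 and -0.87 log2 units with Vactosertib and by -1.61 and -1.31 with A83-01. Both genes overlap another gene on the opposite strand. Mki67, the proliferation marker, had a 95% interval of -0.69 to 1.11. Of 41 genes of DNA replication, 26 had a higher value with Repsox, near the 52.8% of all genes, so nothing is read from the count. Mcm5 alone had an unadjusted p under 0.05, at 10.3, 10.4 and 10.3 CPM with Repsox and 8.63, 6.80 and 7.65 CPM with Vactosertib.

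Genes of limb and positional patterning had higher values with Repsox in 27 of 42 tested members, against 52.8% of all genes. The median was 0.058 log2 units (0.13 and 28 of 42 without Repsox replicate 2). Against control, Repsox raised 24 and lowered 1 of them and Vactosertib raised 24 and lowered 0. Of all genes, Repsox raised 13.4% and lowered 11.8%, and Vactosertib 11.8% and 10.3%. Rspo2, an amplifier of Wnt signals, stood at 174, 158 and 169.7 CPM with Repsox and 141, 143 and 113 CPM with Vactosertib, from 20.2, 20.5 and 20.2 CPM in control. The groups did not overlap, and the difference was 0.33 ± 0.093 log2 units (unadjusted p = 0.00236). Shox2, a homeobox gene of the limb, differed by 0.20 and Fgf10, a growth factor of the limb bud, by 0.29. In the Wnt list 19 of 30 members had a higher value, against 52.8% of all genes (21 of 30 without Repsox replicate 2, the median moving from 0.063 to 0.17). Sp5, Rspo2, Sfrp2 and Notum had an unadjusted p under 0.05 (1.42% of all genes), and the ligand genes Wnt11 and Wnt10b had one in the other direction (1.56%). Notum and Wnt10b were scarce, with overlapping groups. Notum stood at 1.00, 1.56 and 0.650 CPM with Repsox and 0.202, 0.438 and 0.777 CPM with Vactosertib. Wnt10b stood at 0.080, 0 and 0.036 CPM with Repsox and 0.050, 0.278 and 0.388 CPM with Vactosertib. Sfrp2, a secreted Wnt modulator, stood at 406, 429.5 and 379 CPM with Repsox and 351, 355 and 282 CPM with Vactosertib, from 22.0, 25.6 and 27.8 CPM in control. Its difference was 0.30 log2 units, and 0.20 without Vactosertib replicate 3. Wnt11 was scarce, at 0.440, 0.505 and 0.434 CPM with Repsox and 1.21, 0.995 and 1.05 CPM with Vactosertib.

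The other lists held few differences. Interferon-stimulated genes had higher values in 28 of 35 members, but none had an unadjusted p under 0.05, only 11 intervals lay within 1 log2 unit, and without Repsox replicate 2 the count was 21. Cholesterol synthesis genes were higher in 21 of 25, with Insig1 and Hmgcs1 at an unadjusted p under 0.05, and in 16 of 25 without that library, where Hmgcs1 moved from 0.30 to 0.18. Homologous recombination and Fanconi genes were higher in 28 of 37, with a median of 0.11 log2 units, and in 26 of 37 with 0.18 without that library. Nucleotide excision repair genes turned, from 17 of 29 higher and a median of 0.03 to 11 of 29 and -0.088, where 52.8% and 50.3% of all genes were higher. Neither repair list held a member at an unadjusted p under 0.05. Integrins were higher in 11 of 19 with a median of 0.097 log2 units, and the median was 0.34 without Repsox replicate 2 but -0.023 and -0.026 without replicate 1 and replicate 3. The intervals of Smads and fatty acid synthesis genes lay within 1 log2 unit in 8 of 8 and 14 of 14, against 78.8% of all genes, the Smad median moving from 0.028 to 0.12 without that library. Members of the remaining lists with an unadjusted p under 0.05 included Ahr (the aryl hydrocarbon receptor), at 0.43 log2 units, Igf1 and Igfbp2 of the insulin-like growth factor system, at 0.26 and 0.49, the hormone gene Stc1, at 0.42, the growth factors Hbegf and Fgf7, at 0.30 and 0.18, the junction gene Cldn1, at 0.41, the keratin gene Krt18, at 1.01, the Notch ligand gene Dll4, at -0.70, the matrix protease gene Mmp11, at -0.26, the kinase gene Plk2, at -0.27, and the nuclear receptor gene Nr4a3, at 0.78. With that library left out, Igfbp2 stood at 0.17, Stc1 at 0.64 (0.27 without Repsox replicate 1) and Plk2 at -0.18. Of the 31 pathway lists none held a gene called by edgeR. Over the 6 fits leaving out 1 Repsox or Vactosertib library, the median ran from 0.17 to 0.24 for contractile genes, from -0.18 to -0.084 for collagen processing, from -0.25 to -0.054 for the ATF4 list, from -0.18 to -0.082 for glycolysis and hypoxia, from 0.15 to 0.25 for mitosis and from 0.085 to 0.23 for BMP targets, each of 1 sign. It ran from 0.016 to 0.13 for limb patterning and from 0.016 to 0.17 for the Wnt list. It took both signs for TGFb targets, from -0.021 to 0.064, receptors, from -0.10 to 0.15, ligands and antagonists, from -0.018 to 0.20, Smads, from -0.012 to 0.12, collagen chains, from -0.27 to 0.0044, and matrix glycoproteins, from -0.24 to 0.041.

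**Figure D3:**
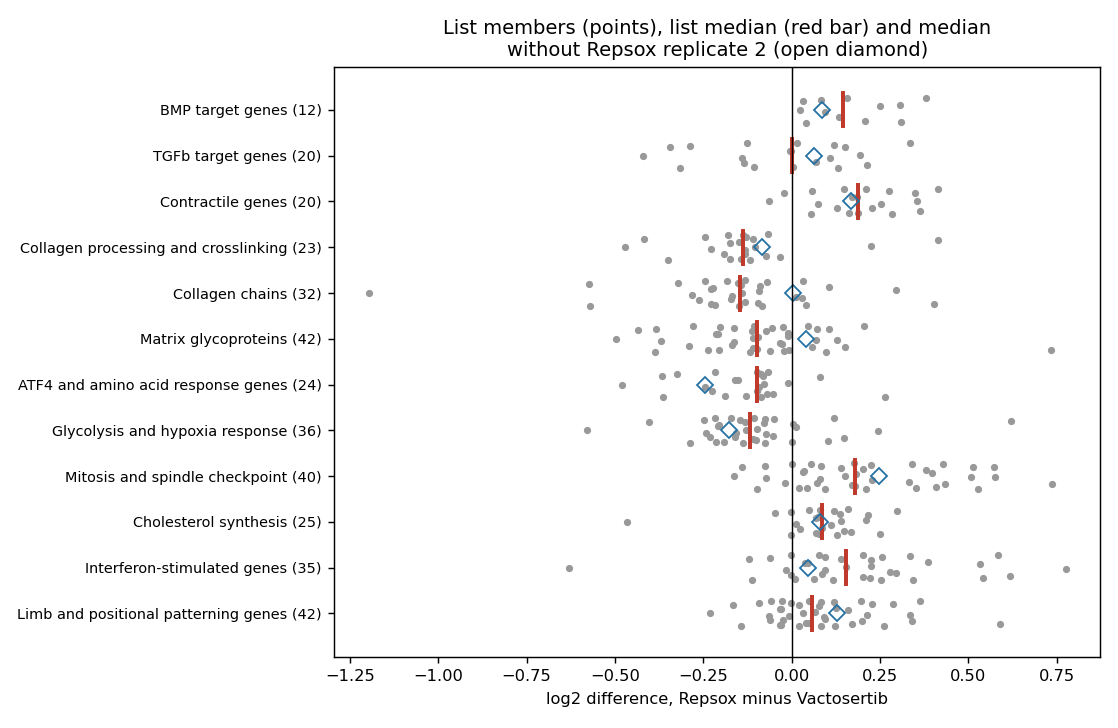
Log2 difference, Repsox minus Vactosertib, on the x axis for every tested member (grey points) of 12 gene lists, with each list's median over all libraries (red bar), its median without Repsox replicate 2 (open blue diamond) and the number of members in brackets. ATF4 and glycolysis genes lie left of 0 and contractile and mitosis genes right of 0 by both medians, whereas the diamonds of collagen chains and matrix glycoproteins sit on the other side of 0 from the bars.

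The A83-01 libraries, which share no library with the comparison, gave an ordering of genes by response to another ALK5 inhibitor at a higher dose. A83-01 raised 2486 genes (16.4%) and lowered 2455 (16.2%) against control. Among the genes it raised, 65.7% had a higher value with Repsox than with Vactosertib, against 52.8% of all genes, with a median difference of 0.055 log2 units. Among those it lowered, 63.0% had a lower value with Repsox, with a median of -0.045. All 3 Repsox libraries lay above all 3 Vactosertib libraries in 7.44% of the raised genes and below them in 1.81%, and in 2.61% and 8.27% of the lowered genes, against 3.06% and 3.43% of all genes. At an unadjusted p under 0.05, 1.42% of all genes were higher and 1.56% lower with Repsox. Of the 2486 raised genes, 93 were higher and 11 lower at that threshold. Of the 2455 lowered genes, 33 were higher, near the share over all genes, and 120 were lower. No gene of either set was called by edgeR, while the 8 genes that DESeq2 called all belong to them.

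The difference grew with the size of the A83-01 response. In genes raised by at least 1 log2 unit the median difference was 0.13 (1062 genes), and in those raised by at least 2 it was 0.19 (408 genes). In genes lowered by at least 1 and at least 2 log2 units it was -0.099 (961 genes) and -0.20 (310 genes). Against control, the genes raised by at least 2 log2 units changed by a median of 2.43 with Repsox and 2.19 with Vactosertib, and those lowered as far had medians of -1.86 and -1.61. Without Repsox replicate 2, the median for a rise of at least 1 log2 unit was 0.15. The lowered side moved more, with -0.035 for a fall of at least 1 and 53.2% of genes lower, -0.11 for a fall of at least 2, and -0.017 over all 2455 lowered genes. Across the 15164 genes the difference correlated with the A83-01 change at a Pearson r of 0.20 and a Spearman rho of 0.21, a description over genes, which are not independent.

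By library, the mean log2 CPM of the 1062 genes raised by at least 1 log2 unit lay 1.55, 1.44 and 1.54 above the control mean with Repsox and 1.37, 1.43 and 1.38 above it with Vactosertib. The groups did not overlap, Repsox replicate 2 and Vactosertib replicate 2 lying nearest to each other. The 961 lowered genes stood at -1.09, -1.34 and -1.12 with Repsox and -1.03, -1.10 and -1.09 with Vactosertib, where Repsox replicates 1 and 3 lay close to or within the range of Vactosertib. The difference of both means, taken as a score, was 2.64, 2.78 and 2.66 with Repsox and 2.399, 2.53 and 2.47 with Vactosertib, between 1.06, 0.981 and 0.945 with DMH-1 and 3.66, 3.59 and 3.64 with A83-01. The genes were chosen on the A83-01 and D/KO control libraries, and the latter are also the zero of the score. Untreated WT control libraries scored 1.45, 1.44 and 1.41, above DMH-1 with no inhibitor present, so the score is not particular to inhibitors.

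**Figure D4:**
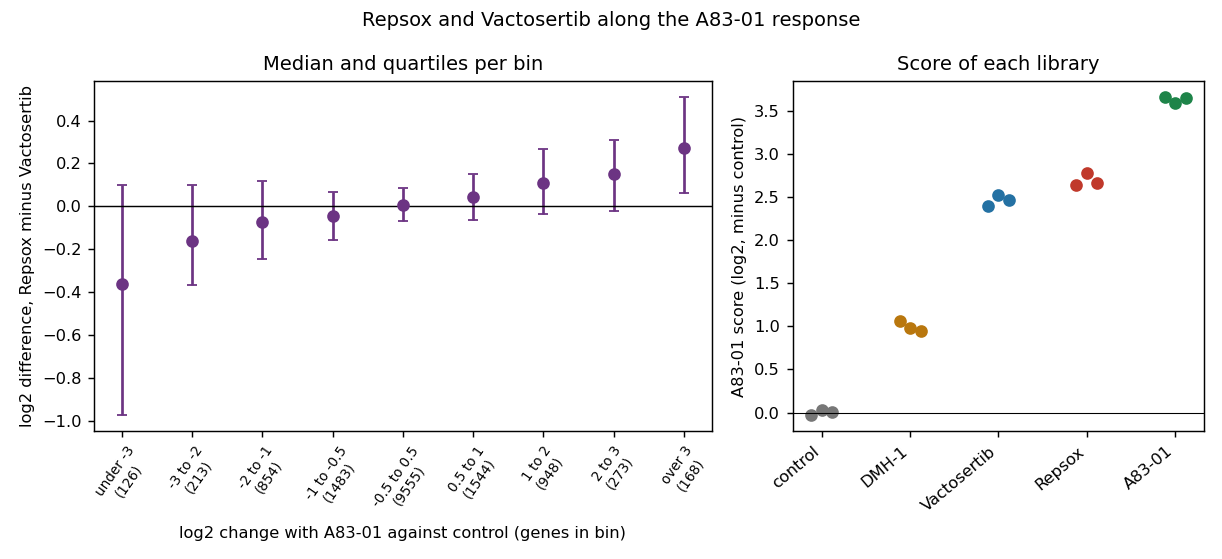
Left, the median (point) and quartiles (bars) of the log2 difference, Repsox minus Vactosertib, in 9 bins of genes ordered by their log2 change with A83-01, with the number of genes per bin in brackets. Right, the A83-01 score of each library in log2 units above the control mean, 3 points a group. The medians run from -0.36 in the most lowered bin to 0.27 in the most raised bin, and the Repsox points lie above the Vactosertib points and below those of A83-01.

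Among the 10 genes with the smallest p in each direction with A83-01, the spread of differences was wide. They were picked by the p of that contrast, whose spread was estimated over all 18 libraries, the Repsox and Vactosertib libraries included. Adcyap1r1, the receptor of the peptide PACAP, stood at 105, 82.8 and 114 CPM with Repsox and 78.6, 80.0 and 75.2 CPM with Vactosertib, from 7.82, 7.90 and 8.67 CPM in control, with no overlap and a difference of 0.37 ± 0.11 log2 units. Vegfd, a lymphatic growth factor, differed by 0.20 and Islr by 0.17, also with no overlap. In 13 of the 20 the groups did not overlap, 6 of them higher and 7 lower with Repsox, and in 7 they overlapped, where 3.06% of all genes lay above and 3.43% below without overlap. The choice by p favours genes whose replicates agree, so the shares over all genes are not a like measure. Gpnmb, a transmembrane glycoprotein, stood at 155, 139 and 153 CPM with Repsox and 143, 162 and 146 CPM with Vactosertib, from 19.1, 21.0 and 23.1 CPM in control, with a 95% interval of -0.19 to 0.16. Ptgs2, the inducible cyclooxygenase, fell to 14.9, 15.6 and 18.5 CPM with Repsox and 16.97, 16.3 and 18.6 CPM with Vactosertib from 128, 129.99 and 122 CPM in control, with an interval of -0.31 to 0.15. Pltp, a phospholipid transfer protein, and Aspn (asporin, a matrix proteoglycan) had intervals of -0.096 to 0.25 and -0.35 to 0.14.

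The genes were also ordered by their response to DMH-1, the ALK2 inhibitor. DMH-1 raised 904 genes (5.96%) and lowered 575 (3.79%) against control. Repsox exceeded Vactosertib in 56.7% of the raised genes, with a median of 0.027 log2 units, and lay below it in 50.6% of the lowered genes, with a median of -0.0032. In genes raised by at least 1 and at least 2 log2 units the medians were 0.067 (344 genes, 64.5% higher) and 0.11 (103 genes, 68.0% higher), and without Repsox replicate 2 they were 0.057 and 0.046. In genes lowered by at least 1 and at least 2 log2 units they were 0.016 (150 genes) and -0.21 (22 genes, 72.7% lower). Over all genes called, the raised genes had changed by a median of 0.66 with Repsox and 0.65 with Vactosertib, and the lowered genes by -0.59 and -0.60. Without Repsox replicate 2 all lowered genes had a median of 0.033, those lowered by at least 1 one of 0.091 and those lowered by at least 2 one of -0.29. The difference correlated with the DMH-1 change across genes at an r of 0.027. Of the 8 genes above, DMH-1 raised Gpc3 by 1.41, Sp5 by 0.74 and Bmp4 by 0.66 log2 units against control and lowered Cd24a, which changed by -0.66. Esm1 (0.32), Plod1 (-0.047), Sertad4 (-0.22) and Fibin (0.17) were not called by edgeR.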

How the data were processed

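RNA was measured by paired-end sequencing of polyadenylated RNA. The authors trimmed reads with Trim Galore, aligned them to GRCm39 with HISAT2 and deposited whole-number read counts per gene from featureCounts, with no strand setting given in the sources used here. The deposited counts were tested as they stand, with samples grouped by their labels. A quasi-likelihood model of edgeR 4.0.16 (R 4.3.3) with TMM scaling was fitted over 18 libraries in 6 groups, after its expression filter at 10 counts (total 15), with the Benjamini-Hochberg correction taken over 15164 genes. CPM values use TMM-scaled library sizes. DESeq2 1.42.0, limma 3.58.1 (voom with sample quality weights), other filters and scalings, and leaving out each of the 6 Repsox and Vactosertib libraries (and DMH-1 replicate 2) were alternatives. The members and gene lists were chosen with earlier results of these data known. Because edgeR called no gene, genes are named from DESeq2 calls, fixed lists, smallest p-values and the A83-01 contrast. Depth was 17469165 to 26706181 counts per library in the 6 compared. Promoters are RefSeq windows on GRCm38.p6, searched by letters only.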

Additional observations from a re-analysis of the deposited data

How the results depend on the processing

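The count of genes called was 0 in either direction by edgeR and in 14 of the 16 alternatives, the smallest adjusted p lying between 0.0635 and 1 in these. DESeq2 called 5 genes higher and 3 lower, and voom with sample quality weights, chosen after the data were seen, called 16 and 7. Genes at an unadjusted p under 0.05 numbered 452, and 1366 without Repsox replicate 2, 2903 with voom weights, 1352 with Repsox replicate 2 and DMH-1 replicate 2 both left out (also chosen after seeing the data) and 213 with the 6 libraries alone. The median difference of genes raised by A83-01 was 0.055, and 0.071 with no filter, 0.073 with all 24 libraries and 0.13 at a change of at least 1 log2 unit. The genes were chosen anew in each fit that left out a library, unlike the fixed genes above. For genes lowered by A83-01 the median ranged from -0.065 to -0.0087 over the fits leaving out 1 library, the highest without Repsox replicate 2. For genes lowered by DMH-1 that range was -0.043 to 0.056, the highest without Repsox replicate 2, and it was 0.072 with both libraries left out. Genes raised by DMH-1 stood at 0.027, at 0.067 for a change of at least 1 log2 unit, at 0.0057 without Repsox replicate 2 and at -0.0066 with both libraries left out.

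Of the 103 genes named in the tables, 8 changed sign, with 24 values on the other side of 0. Over the fits leaving out 1 library, Aspn ranged from -0.18 to 0.016 (highest without Vactosertib replicate 1), Cnn2 from -0.079 to 0.13 and Smad6 from -0.025 to 0.077 (lowest without Vactosertib replicate 1). The values at the turned end without Repsox replicate 2 were 0.0043 for Col7a1 (lowest -0.25), 0.047 for Acvr1b (lowest -0.25), 0.12 for Tgfbr1 (lowest -0.18), -0.038 for Ercc1 (highest 0.076), -0.079 for Cnn2, -0.011 for Smad6 and 0.031 for Gpnmb (lowest -0.049). Without Vactosertib replicate 2, Cnn2 stood at -0.00011 and Gpnmb at 0.040. With both libraries left out the values were Col7a1 0.0048, Acvr1b 0.047, Cnn2 -0.079, Tgfbr1 0.12, Smad6 -0.011, Ercc1 -0.038 and Gpnmb 0.032. With voom weights they were Col7a1 0.048, Acvr1b 0.046, Cnn2 -0.054, Tgfbr1 0.083, Ercc1 -0.023 and Gpnmb 0.050. The cause was not tested. No paired analysis was possible because the replicate numbers follow accession order and tie no library of one compound to a library of the other. With 3 libraries a group, 7261 genes (47.9%) had an interval within 0.5 log2 units, which bounds what depth and spread could show.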
